A study of Mus musculus with 16 samples.

Results

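The comparison is that of the kidney after chronic phase advance with the kidney under a regular light-dark cycle. Its members are the 8 kidney libraries among the 16 libraries of the series, 4 of the LD condition (L63, L65, L86 and L104) and 4 of the ADV condition (A75, A91, A94 and A115). All were male C57BL/6J mice, kept in their condition for 85 weeks and aged 97 weeks at the end. LD-conditioned mice had light from 8:00 to 20:00 every day. In the ADV condition the light-dark cycle was moved 8 h earlier every 4 days. The labels name no drug and no genetic change in either group. Each library is the poly(A) RNA of the kidney of 1 mouse, so that the spread between libraries includes that between mice, and the other 8 libraries are the livers of the same 8 mice. The organs were taken within a window of hours after lights on, and the clock time for each mouse was not given in the sources used here. The authors named a pair of sequencing providers with different instruments without assigning libraries to them in the text used here, so that provider and condition cannot be told apart.

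Levels are FPKM, the fragments on the exons of a gene scaled to exon length and library size, and rescaled in each library to the fragments outside the mitochondrial chromosome (chrM). Of the 32989 genes in the kidney table, 13964 had a mean above 0.5 rescaled FPKM over the 8 kidneys and lay outside chrM. The gene just inside this limit had a mean of 0.50014 and the gene just outside it 0.49994. Fold changes are ADV against LD on the log2(rescaled FPKM + 0.1) scale, tested with limma and adjusted over all 13964 genes by the Benjamini-Hochberg method. Values per kidney are rescaled FPKM unless stated otherwise, always in the order L63, L65, L86 and L104, then A75, A91, A94 and A115.

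The nephron is a chain of specialised epithelia. The glomerulus filters plasma through podocytes, the proximal tubule takes back most of the filtered sodium, glucose, phosphate and amino acids, the thick ascending limb and the distal convoluted tubule reclaim salt, and the collecting duct adjusts water, potassium and acid. The proximal tubule draws its energy mainly from the oxidation of fatty acids and also makes glucose, with peroxisome proliferator-activated receptor alpha (Ppara) as a main regulator of oxidation genes. A damaged tubule loses these functions and makes injury proteins such as Kim-1 (Havcr1) and lipocalin-2 (Lcn2), while fibroblasts lay down collagen and leukocytes enter the interstitium. The kidney has a circadian clock of its own that times transport and metabolism.

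The 4 ADV kidneys did not form a uniform group, and one of them, A115, stood apart from all others. Between 15688495 and 18043306 fragments lay on genes in each kidney library, and after chrM was left out between 11591000 (A115) and 16342145 (A94) remained, so that 1 fragment in 1 kb of exon was worth between 0.0612 and 0.0863 rescaled FPKM. Genes on chrM took 18.0%, 18.0%, 15.7% and 16.2% of the fragments in the LD kidneys and 10.7%, 13.1%, 9.43% and 33.8% in the ADV kidneys. The means were 16.98 ± 1.18% (SD, n = 4) and 16.76 ± 11.44% (SD, n = 4), with p = 1 (exact permutation test, two-sided, 0.029 being the smallest p possible with 4 mice in each group). A115 also had the fewest genes detected, 15445 against 17198 to 18819 in the others, and it correlated least with the rest, at a mean r across genes of 0.827 against 0.913 to 0.950. The deviation of a gene from its LD mean followed the GC content of its transcript. For an LD kidney the mean of the other LD kidneys was taken. The correlation with GC content, over the 12314 genes that could be matched to a transcript, was 0.567, 0.516 and 0.371 in A75, A91 and A94 but −0.675 in A115, and between −0.267 and 0.208 in the LD kidneys. In the livers of the same mice it lay between −0.237 and 0.142. Against the LD mean, the genes of the lowest quintile of GC content had a median of 0.72 on the log2 scale in A115 and those of the highest quintile −1.66, while in A75 these medians were −0.34 and 0.67. Therefore results are given with all 8 kidneys, without A115, without A94 where its immune genes matter, and after a correction that removes the dependence on GC content within each kidney, which was added after the data had been seen. The cause of the GC relation was not tested.

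**Figure D1:**
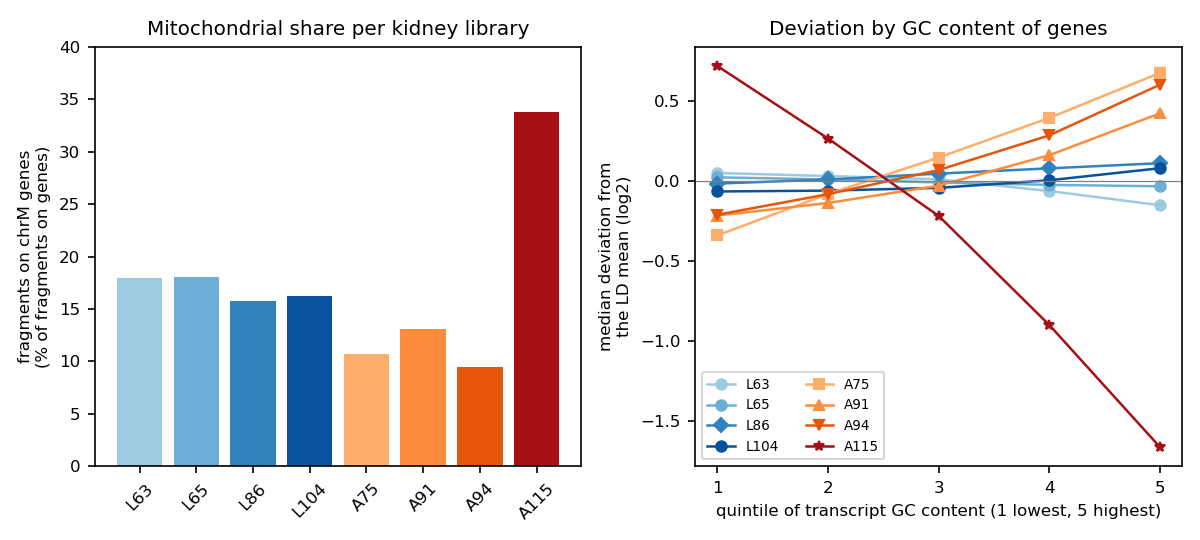
Left, share of gene fragments that lay on chrM genes, in percent, for each of the 8 kidneys. Right, median deviation from the LD mean (log2) of genes grouped into 5 classes of transcript GC content, 1 line per kidney. A115 holds 33.8% of its fragments on chrM and falls with GC content, while A75, A91 and A94 rise with it.

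The expected kidney cell types were all present. Slc34a1, the phosphate transporter of the proximal tubule, lay between 254 and 1960.0 rescaled FPKM, and Umod, the uromodulin of the thick ascending limb, was at 1351 or more in every kidney. Nphs1 of the podocyte, Slc12a3 of the distal convoluted tubule, Aqp2 of principal cells and Pecam1 of endothelium were above 1 in all 8. The adrenal marker Cyp11b1 and the muscle marker Ckm did not reach the mean of 0.5, and none of the adrenal cortex genes sought was tested. Alb of the liver was at 3.94 to 7.600 rescaled FPKM.

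With all 8 kidneys, limma called 0 genes, 0% of the 13964 tested, at an adjusted p under 0.05 (smallest adjusted p 0.334), and limma-voom on recovered fragments also called 0. Unadjusted, 404 genes were under 0.05 by limma (242 higher and 162 lower with ADV) and 389 by limma-voom. In 172 genes, 1.23% of those tested, each ADV kidney lay above every LD kidney, and in 204 genes, 1.46%, each lay below. After GC correction these counts were 192 of 12314 (1.56%) and 374 (3.04%), and 61 and 65 genes kept this order both before and after. Without A115, limma called 2415 genes, of which 1686 (12.1% of those tested) rose and 729 (5.22%) fell in the other 3 ADV kidneys. This split depended on scaling, with 2312 higher and 396 lower as deposited 1164 and 1181 after scaling by the median ratio and 1096 and 1323 after quantile normalization, and in these fits the fold changes of all genes had medians of 0.11, 0.19, 0.0010 and −0.05 on the log2 scale. The count was 0 after GC correction and also 0 when L65 was left out, and it was 1 when A94 was left out as well as A115. Genes that rose had a median GC content of 57.6%, those that fell 42.9% and all genes 50.4%. These limits apply to every gene described below as risen or fallen without A115. In A115, 96.2% of the genes called higher lay below the LD mean and 89.0% of those called lower lay above it. As the background for the lists below, all genes tested had median log2 fold changes of −0.02 with 8 kidneys, 0.11 without A115, −0.05 without A94 and −0.05 after GC correction of the 8 kidneys. Where a range stands beside the median of a list, it gives the lowest and highest median when each kidney was left out in turn.

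Among the genes with the smallest p over the 8 kidneys were several of known function whose groups did not overlap. Rnaset2a, a lysosomal ribonuclease T2 gene on chromosome 17 from 8128598 to 8147788 (GRCm38/mm10), was at 2.51, 3.26, 5.38 and 5.58 in the LD kidneys and 14.5, 18.00, 23.9 and 14.8 in the ADV kidneys (log2 fold change 2.11 ± 0.30 SE, limma adjusted p = 0.409). Its near-identical copy Rnaset2b was at 2.82, 4.72, 5.52 and 6.44 in the LD kidneys and 10.6, 18.4, 20.7 and 7.39 in the ADV kidneys, and reads may have been divided between the pair. Neat1, the long noncoding RNA that builds nuclear paraspeckles, was at 7.35, 5.97, 6.39 and 10.9 in the LD kidneys and 31.8, 17.95, 18.1 and 14.95 in the ADV kidneys (log2 fold change 1.40 ± 0.29 SE). All 4 ADV kidneys were above every LD kidney in these 3 genes, with A75 highest in Neat1 and A94 highest in the ribonuclease genes. Penk, which encodes proenkephalin, had 0.533 to 1.46 in the LD kidneys and 1.97 to 4.795 in the ADV kidneys. Pabpn1, a nuclear poly(A)-binding protein, had 23.8 to 34.1 in the LD kidneys and 42.5 to 58.3 in the ADV kidneys. The genes of the mitochondrial proteins Mrpl52 (log2 fold change 0.88) and Tomm7 (0.56), and Tspan1 (0.54), Acbd6 (0.69), Nupr1l (1.54) and the transcript AK085341 (1.06) completed the genes with the smallest p on the higher side together with Mir6917. On the lower side, Id2, an inhibitor of helix-loop-helix transcription factors, was at 376, 385, 388 and 386 in the LD kidneys and 269, 260.1, 229 and 314 in the ADV kidneys (log2 fold change −0.53 ± 0.14 SE), so that the LD kidneys lay close together and each ADV kidney lay below them. Hsd17b11, a lipid droplet dehydrogenase, was at 243, 233, 203 and 258 in the LD kidneys and 133, 157, 93.9 and 153 in the ADV kidneys (log2 fold change −0.83 ± 0.19 SE). Nudt19, a peroxisomal coenzyme A hydrolase of the kidney, was at 703, 725, 548 and 965 in the LD kidneys and 328, 467, 366 and 450.0 in the ADV kidneys (log2 fold change −0.85 ± 0.21 SE). In both of these genes every ADV kidney was below every LD kidney. Akr1c19, an aldo-keto reductase, had a log2 fold change of −0.65, Tcte2 −0.76 and the transcript AK187054 −2.01, and Pck1 is described with its pathway. The short entries Mir6917, Mir7042, Mir7231 and Snord64 also had very small p values, but none rested on more than 6 fragments in any kidney. TRNA_Asn, another short entry, was on this side too.

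Most of the genes with the smallest p without A115 differed the other way, or less, in that kidney, the short entry Mir7042 being an exception. Chmp6, of the machinery that sorts membrane proteins into endosomes, was at 16.99, 18.4, 19.8 and 19.9 in the LD kidneys and 34.1, 35.5, 36.2 and 8.67 in the ADV kidneys, a log2 fold change of 0.91 without A115 (adjusted p = 0.014 by limma) and 0.40 with it. Dohh, an enzyme that modifies the translation factor eIF5A, had 1.16 without A115 and 0.44 with it. Ypel3 (1.03 and 0.21), Lypla2 (1.25 and 0.37) and Slc12a9 (1.24 and 0.24) were alike in this, and so were Haghl (1.09 and 0.17) and Timm13 (0.98 and 0.14). Zfp771 (1.65 and −0.15) and Spsb2 (1.16 and −0.76) changed sign with A115, as did Cenpb (0.97 and −0.05). Gclc, the catalytic subunit that limits glutathione synthesis, was at 116, 107, 107 and 111 in the LD kidneys and 67.1, 61.6, 52.7 and 174 in the ADV kidneys. It fell by 0.87 on the log2 scale in A75, A91 and A94 (adjusted p = 0.014 by limma), and A115 was the highest of all 8 kidneys. Top1 (DNA topoisomerase I) was at 46.95, 48.03, 47.5 and 44.9 in the LD kidneys and 32.7, 33.4, 32.3 and 88.7 in the ADV kidneys, with the same order. Thap2, Hacd2, Pdcd10, Wac, Dnajb9, Arhgap5, Krcc1 and Fndc3a fell in the same 3 kidneys and were higher in A115 than the LD mean.

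Fatty acid oxidation was the gene list with the most members below the LD range. Of its 31 tested members, 30 had a log2 fold change below 0, with a median of −0.35 against −0.02 for all genes. In 9 members every ADV kidney was below every LD kidney, 29.0% of the list, where 1.46% of all genes were. The median was −0.34 without A115, when that of all genes was 0.11, −0.45 without A94 and −0.37 after GC correction, where 5 of 30 members did not overlap (3.04% of all genes) and 3 did so in both. A lower level of this group was known from earlier results of these data, so its direction is not independent evidence. No member passed the adjusted threshold with 8 kidneys, and without A115, 1 rose and 9 fell, where 12.1% and 5.22% of all genes did. The number of members below the LD mean was 26, 23, 25 and 24 in the ADV kidneys, so that each ADV kidney contributed.

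Cpt2, the carnitine palmitoyltransferase of the inner mitochondrial membrane, lies on chromosome 4 from 107903982 to 107923589. It was at 96.7, 93.7, 81.1 and 95.3 in the LD kidneys and 63.3, 67.4, 65.9 and 39.8 in the ADV kidneys (log2 fold change −0.66 ± 0.20 SE). It was lower in all ADV kidneys before and after GC correction and fell by 0.48 without A115 (adjusted p = 0.018 by limma). Cpt1a, the outer-membrane enzyme that admits long-chain fatty acids, was at 163, 144, 129 and 136 in the LD kidneys and 112, 128, 101 and 62.97 in the ADV kidneys (log2 fold change −0.54 ± 0.23 SE), with A115 lowest. Ppara itself, the transcription factor of this programme, was at 29.4, 27.5, 23.8 and 24.6 in the LD kidneys and 17.2, 22.2, 16.1 and 10.9 in the ADV kidneys (log2 fold change −0.70 ± 0.22 SE), and A91 came closest to the LD range. Ehhadh, the bifunctional enzyme of peroxisomal oxidation, was at 286, 238, 226 and 298 in the LD kidneys and 125, 214, 148 and 189.7 in the ADV kidneys (log2 fold change −0.65 ± 0.20 SE). The lowest LD kidney, L86, was still above the highest ADV kidney, A91. Acsm3, a medium-chain acyl-CoA synthetase, had the largest difference of the 9, −0.91 ± 0.28 SE, with 234 to 417 in the LD kidneys and 105 to 216 in the ADV kidneys. Hadhb (−0.35), Eci2 (−0.66) and the carnitine-acylcarnitine carrier Slc25a20 (−0.39) were also below the LD range in every ADV kidney. Acadl, which dehydrogenates long-chain acyl-CoA, went with the other genes in 3 kidneys but not in A115: it was at 293, 271, 261 and 256 in the LD kidneys and 164, 202, 169.7 and 413 in the ADV kidneys. Etfb, an electron acceptor of these dehydrogenases with a GC content of 57%, was the member that rose without A115 (0.34, adjusted p = 0.043 by limma) and was at 56.3 in A115 against 248 to 291 in LD.

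**Figure D2:**
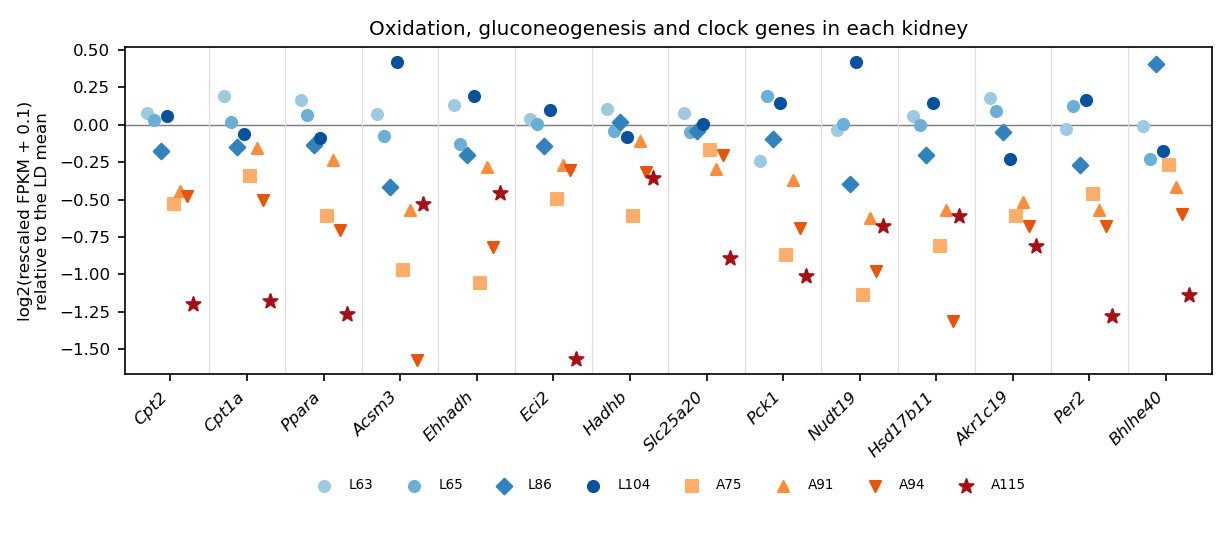
Each point is 1 kidney, plotted as log2(rescaled FPKM + 0.1) relative to the LD mean, for 8 genes of fatty acid oxidation, Pck1, Nudt19, Hsd17b11, Akr1c19 and the clock genes Per2 and Bhlhe40. In all of these genes the 4 ADV points lie below the 4 LD points. The genes were picked for this order.

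Gluconeogenesis and amino acid breakdown differed less as a group. Its 42 tested genes had a median of −0.26, but −0.06 without A115, and 4 of them (9.52%) were below the LD range in every ADV kidney, where 1.46% of all genes were. After GC correction 1 of 40 was, where 3.04% of all genes were. Pck1, phosphoenolpyruvate carboxykinase, the enzyme that commits carbon to glucose and to ammonia handling in the proximal tubule, lies on chromosome 2 from 173153073 to 173159254. It was at 751, 1019, 835 and 983 in the LD kidneys and 488, 689.9, 553 and 442 in the ADV kidneys, with means of 897 ± 126 rescaled FPKM (SD, n = 4) in the LD kidneys and 543 ± 108 (SD, n = 4) in the ADV kidneys (log2 fold change −0.73 ± 0.19 SE, limma adjusted p = 0.9997). Every ADV kidney was below every LD kidney before and after GC correction, and without A115 Pck1 fell by 0.64 on the log2 scale (adjusted p = 0.033). Gldc of the glycine cleavage system (−0.54), Hibadh of valine breakdown (−0.54) and Pipox of lysine breakdown (−0.36) were the other 3. Ass1, argininosuccinate synthase, was among the most abundant, with a log2 fold change of −0.67 and overlapping groups. Nuclear-encoded genes of the respiratory chain had a median of −0.05 over 50 genes, and 0.18 without A115. Without A115, 15 of them rose and 0 fell, where 12.1% and 5.22% of all genes did. In 2 of the 50 (4%) every ADV kidney was below every LD kidney, where 1.46% of all genes were. After GC correction 0 of 47 were, where 3.04% of all genes were. Of these 2, Ndufa10 of complex I had 226 to 243 in the LD kidneys and 184 to 207 in the ADV kidneys. Uqcrc2 of complex III had 308 to 338 in the LD kidneys and 252 to 297 in the ADV kidneys.

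Several androgen-dependent kidney genes, which are made in the proximal tubule of male mice, were low in the ADV kidneys. The 14 tested genes of this list had a median of −0.47, −0.52 without A115, −0.33 without A94 and −0.50 after GC correction. In 3 of them, Acsm3, Cyp7b1 and Cyp2j13, every ADV kidney was below every LD kidney, where 1.46% of all genes were. The same 3 fell without A115, where 5.22% of all genes did. After GC correction 2 of the 14 were below the LD range in every ADV kidney, where 3.04% of all genes were. The list scores were −0.61 in A75 and −0.64 in A94, but −0.21 in A91 and −0.11 in A115, within the LD range of −0.22 to 0.17. After GC correction A91 (−0.05) stayed within the LD range and A115 (−0.54) was below it. Cyp7b1, an oxysterol hydroxylase, was at 91.8, 67.1, 71.8 and 97.6 in the LD kidneys and 41.9, 55.5, 60.4 and 59.2 in the ADV kidneys (log2 fold change −0.59 ± 0.19 SE). Cyp2j13, an arachidonate epoxygenase of the male kidney, was at 141, 142, 157 and 169 in the LD kidneys and 86.4, 119.5, 50.8 and 139 in the ADV kidneys (log2 fold change −0.71 ± 0.30 SE), with A115 only just under the lowest LD kidney. Kap, the kidney androgen-regulated protein and one of the most abundant transcripts of the organ, was at 48082, 46707, 33302 and 50744 in the LD kidneys and 20265, 35461, 23629.5 and 75859 in the ADV kidneys. A75 and A94 were below the LD range and A115 was far above it, so that its log2 fold change of −0.39 had a standard error of 0.40. Odc1, ornithine decarboxylase, had 333 to 509.6 in the LD kidneys and 198 to 334 in the ADV kidneys, with a log2 fold change of −0.54.

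Clock genes were also low on balance. The 22 tested clock and clock-output genes had a median of −0.30 (−0.19 without A115, −0.33 after GC correction), and 2 of them did not overlap, both lower (1.46% of all genes). Without A115 0 rose and 4 fell, where 12.1% and 5.22% of all genes did. Per2, a repressor of the core loop, was at 14.6, 16.3, 12.3 and 16.7 in the LD kidneys and 10.8, 10.01, 9.28 and 6.08 in the ADV kidneys (log2 fold change −0.74 ± 0.22 SE, limma adjusted p = 0.9997). Each ADV kidney was below every LD kidney, and without A115 Per2 fell by 0.57 on the log2 scale (adjusted p = 0.025). Bhlhe40, a repressor of E-box transcription, was at 66.96, 57.2, 89.2 and 59.6 in the LD kidneys and 55.8, 50.4, 44.4 and 30.5 in the ADV kidneys (log2 fold change −0.60 ± 0.23 SE), and its order held after GC correction. Cry1, the partner of the PER proteins, was at 7.48, 9.85, 9.85 and 9.398 in the LD kidneys and 5.12, 4.01, 6.001 and 9.45 in the ADV kidneys, low in 3 ADV kidneys and within the LD range in A115, and fell by 0.86 without that kidney (adjusted p = 0.018 by limma). Clock (−0.53) and Rora (−0.57) also fell without A115, whereas A115 was above the LD range in both. The activator Arntl, known also as Bmal1, and the output gene Dbp swing widely over the day. Arntl was at 1.24, 1.39, 3.31 and 2.36 in the LD kidneys and 5.62, 1.04, 1.46 and 10.49 in the ADV kidneys, and Dbp was at 46.2, 34.9, 20.2 and 21.4 in the LD kidneys and 14.7, 86.4, 70.001 and 8.79 in the ADV kidneys. Within the ADV group A75 and A115 had much Arntl and little Dbp, and A91 and A94 the reverse, while L86 and L104 differed from L63 and L65 in the same sense. Nr1d1, a repressor that is out of phase with Arntl, had 7.68 to 15.2 in the LD kidneys and 3.69 to 25.5 in the ADV kidneys. With 1 time window and no clock time per mouse, phase and amplitude cannot be told apart here.

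The markers of most nephron segments had small median differences. Of 9 segment lists with 125 tested genes, 8 had a median below 0 with 8 kidneys, and the medians of the thick ascending limb, principal cells and intercalated cells changed sign without A115. With GC correction these medians without A115 were −0.07, −0.01 and −0.15. Over all 125 genes the median was −0.15 with 8 kidneys, 0.044 without A115 and −0.18 after GC correction, and 4 genes were below the LD range in every ADV kidney and 0 above it, where 1.46% and 1.23% of all genes were. Without A115, 15 rose and 6 fell, where 12.1% and 5.22% of all genes did. Of these 21, 17 lay on the other side of the LD mean in A115, a pattern shared with called genes in general (96.2% of the higher and 89.0% of the lower). In RNA from the mixed tissue, fewer cells of a segment and less RNA per cell cannot be told apart.

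The straight part of the proximal tubule had the lowest median of the 9, −0.44 over 17 genes, with −0.39 without A115, −0.50 without A94 and −0.46 after GC correction. Of these 17 genes, 1 had a log2 fold change above 0. Aadat, which breaks down kynurenine, was at 271, 216, 213 and 305 in the LD kidneys and 141, 207, 114 and 185 in the ADV kidneys (log2 fold change −0.66 ± 0.23 SE), and with Cyp7b1 it was 1 of the 2 genes of the 17 in the list below the LD range in every ADV kidney, where 1.46% of all genes were. Slco1a6, an organic anion transporter, was at 131, 127, 109 and 132 in the LD kidneys and 76.4, 107, 87.9 and 135 in the ADV kidneys, low in A75, A91 and A94 and above the LD range in A115. Napsa, an aspartic protease, was at 839, 779, 887 and 978 in the LD kidneys and 999, 1423, 1409.9 and 132 in the ADV kidneys, with A75, A91 and A94 above the LD range and A115 far below it, and it has a higher GC content (53%) than Slco1a6 (40%). For the first segments of the proximal tubule the median was −0.21 over 20 genes (−0.34 without A91 to −0.15 without A115). Slc34a1 was at 1061, 1176, 1156 and 1292 in the LD kidneys and 1578, 1960.0, 1582 and 254 in the ADV kidneys, and Slc5a2, the sodium-glucose cotransporter SGLT2, was at 82.4, 88.8, 105 and 98.4 in the LD kidneys and 138, 189, 156 and 12.4 in the ADV kidneys. Both rose without A115 (log2 fold changes 0.54 and 0.78, adjusted p = 0.031 and 0.016 by limma) and were lowest of all in A115. Slc27a2, a fatty acid transporter and acyl-CoA synthetase, had 2098 to 2678 in the LD kidneys and 1688 to 2409.6 in the ADV kidneys, and Miox, which breaks down inositol, had 1574 to 1974 in the LD kidneys and 428 to 2226 in the ADV kidneys.

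Podocyte genes had a median of −0.09 (−0.16 without L104 to −0.03 without A115). Podxl, the podocalyxin of the glomerular epithelium, was at 49.03, 51.5, 47.6 and 48.8 in the LD kidneys and 50.97, 49.8, 44.997 and 28.03 in the ADV kidneys, even in 7 kidneys and lower in A115. Nphs1, nephrin, had 5.56 to 5.81 in the LD kidneys and 1.59 to 6.34 in the ADV kidneys, with A115 lowest. For the thin limb the median was 0.21 (0.01 without A75 to 0.41 without A115) and for the thick ascending limb −0.03 (−0.24 without A75 to 0.10 without A115). Umod was at 1861, 1859, 2174 and 1649 in the LD kidneys and 2787, 1757, 1680.0 and 1351 in the ADV kidneys and Slc12a1, the NKCC2 cotransporter, at 384, 341, 381 and 326 in the LD kidneys and 287, 418, 369 and 452 in the ADV kidneys, so that in neither gene did the conditions separate. Cldn19, a tight junction protein that lets magnesium and calcium through, was at 6.97, 9.501, 10.8 and 10.51 in the LD kidneys and 35.01, 20.7, 21.9 and 0.484 in the ADV kidneys and rose without A115 (1.43, adjusted p = 0.014 by limma). In the distal convoluted tubule (median −0.14, −0.34 without A75 to −0.13 without A115), Slc12a3, the thiazide-sensitive cotransporter, was at 183, 208, 208 and 179 in the LD kidneys and 318, 258, 201 and 58.2 in the ADV kidneys. Wnk1, a kinase that controls it, was at 73.8, 62.3, 56.7 and 58.4 in the LD kidneys and 47.5, 47.6, 34.2 and 49.7 in the ADV kidneys, lower in each ADV kidney before and after GC correction (log2 fold change −0.50 ± 0.17 SE). It fell by 0.55 on the log2 scale without A115 (adjusted p = 0.038 by limma). The connecting tubule list had a median of −0.09 (−0.22 without A75 to −0.02 without A115), with Klk1, a kallikrein, at 1828 to 2088 in the LD kidneys and 784 to 2138 in the ADV kidneys and S100g, a calcium-binding protein, at 657 to 852 in the LD kidneys and 263 to 934 in the ADV kidneys.

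In the collecting duct the direction hung on A115 before GC correction. Principal cell genes had a median of −0.11 with it and 0.31 without it, and intercalated cell genes −0.27 and 0.09. With GC correction the medians without A115 were −0.01 for principal cells and −0.15 for intercalated cells, where that of all genes was −0.06. Aqp2, the vasopressin-regulated water channel, was at 47.3, 64.8, 108 and 123 in the LD kidneys and 127, 236, 241 and 2.99 in the ADV kidneys. The LD kidneys alone spanned a factor of more than 2, A75, A91 and A94 were above all of them, A75 only just, and A115 was lowest by far. Aqp3, the channel of the basolateral side, was at 30.3, 36.7, 39.9 and 43.3 in the LD kidneys and 53.5, 62.7, 64.7 and 6.38 in the ADV kidneys, and Avpr2, the vasopressin receptor, at 5.15, 6.28, 9.33 and 8.71 in the LD kidneys and 12.6, 12.2, 13.6 and 4.34 in the ADV kidneys. All 3 genes rose without A115, with log2 fold changes of 1.27, 0.69 and 0.83 (adjusted p = 0.046, 0.019 and 0.031 by limma), and their GC contents were 63%, 53% and 55%. After GC correction every ADV kidney was above every LD kidney in Avpr2 (0.43) and below every LD kidney in the transcription factor genes Tfcp2l1 (−0.38) and Foxi1 (−0.34) and in Kit, a receptor tyrosine kinase (−0.29), of 14 principal and 17 intercalated cell genes, where 1.56% of all genes were above and 3.04% below. Slc4a1, the anion exchanger of acid-secreting intercalated cells and also of red cells, was at 6.84, 6.26, 6.72 and 6.904 in the LD kidneys and 11.6, 10.7, 10.502 and 1.92 in the ADV kidneys, and Atp6v1b1, a proton pump subunit, at 48.8, 51.6, 47.7 and 40.7 in the LD kidneys and 48.1, 45.5, 41.5 and 25.3 in the ADV kidneys. Slc4a1 rose without A115 (0.70, adjusted p = 0.014 by limma) and Atp6v1b1 did not (−0.06). Atp6v1g3, another pump subunit with a GC content of 39%, was highest in A115, with 17.2 to 20.7 in the LD kidneys and 17.2 to 31.3 in the ADV kidneys.

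**Figure D3:**
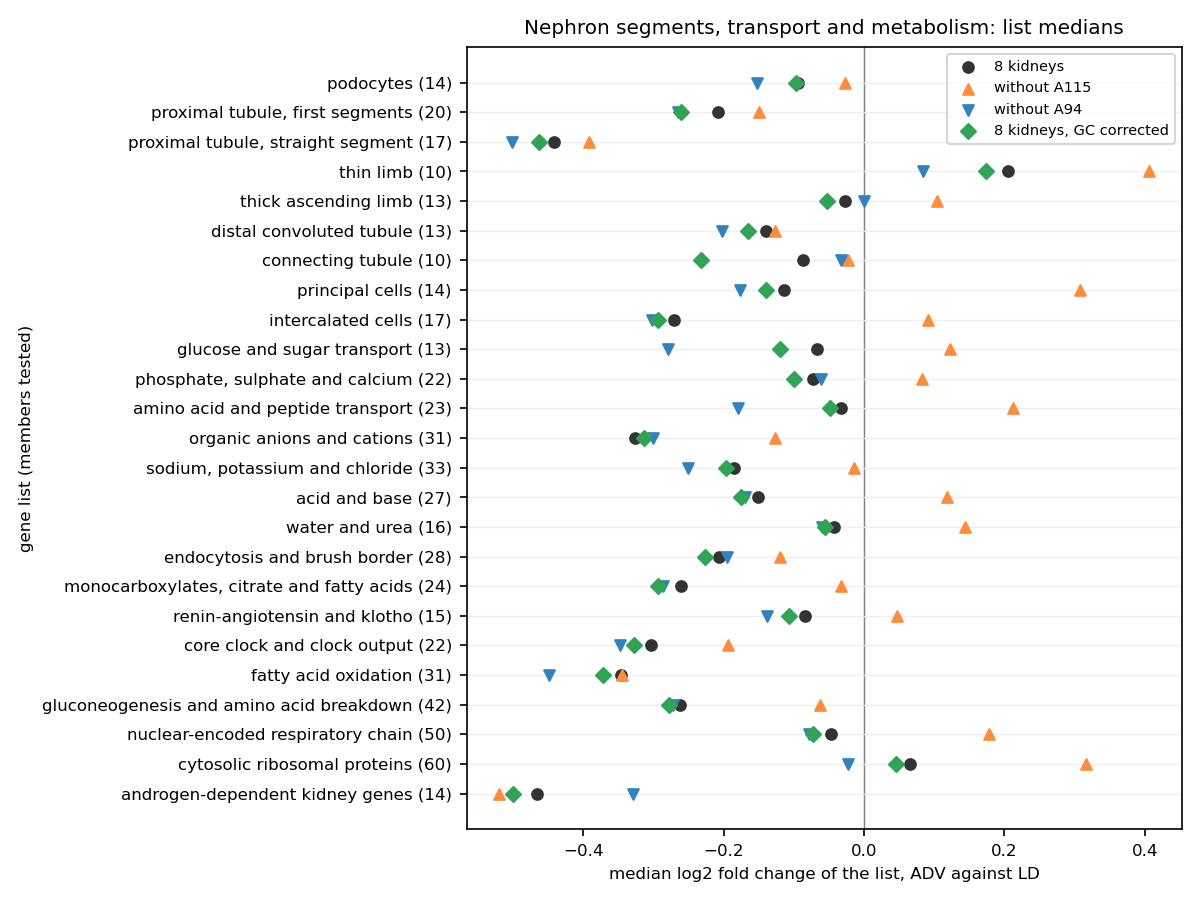
Median log2 fold change, ADV against LD, of each list of nephron segment, transport, hormone and metabolism genes with 8 kidneys, without A115, without A94 and after GC correction of the 8 kidneys, with the number of members tested in brackets. Fatty acid oxidation, androgen-dependent genes and the straight proximal segment are below 0 at all 4 settings. So are other lists, such as clock genes and organic anions and cations. The lists named first share members, among them Acsm3 and Cyp7b1. Principal and intercalated cells cross 0 without A115.

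Transport genes followed the same course. All 9 transport lists (211 tested genes together) had a median below 0 with 8 kidneys, from −0.03 for amino acids and peptides to −0.33 for organic anions and cations. Over the 211 genes the median was −0.14 with 8 kidneys, 0.027 without A115 and −0.17 after GC correction. Those with every ADV kidney above or below the LD range were 1 and 4 of the 211, where 1.23% and 1.46% of all genes were. Without A115, 24 rose and 10 fell, where 12.1% and 5.22% of all genes did, and 30 of these 34 lay on the other side of the LD mean in A115. The list medians of organic ions (−0.13 without A115) and of endocytosis and brush border genes (−0.21 and −0.12) kept their sign without that kidney, as did those of sodium, potassium and chloride (−0.01) and of monocarboxylates (−0.03). Among organic ion and endocytosis genes few members had a log2 fold change above 0 with 8 kidneys, 5 of 31 and 3 of 28.

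Slc5a8, a sodium-coupled carrier of lactate and other monocarboxylates, was at 94.6, 80.6, 62.4 and 83.5 in the LD kidneys and 37.7, 63.6, 43.5 and 56.4 in the ADV kidneys. It fell by 0.75 on the log2 scale without A115 (adjusted p = 0.037 by limma), and A115 was also below the lowest LD kidney, so that only A91 overlapped the LD range. Slc7a13, a transporter of aspartate and cystine in the straight segment, was at 706, 647, 562 and 838 in the LD kidneys and 343, 656, 363 and 365 in the ADV kidneys, low in 3 ADV kidneys and in the LD range in A91. Tmem27, collectrin, which brings amino acid transporters to the brush border, was at 2121, 2035, 1842 and 1934 in the LD kidneys and 762, 1688, 1336 and 2831 in the ADV kidneys, with A75, A91 and A94 below the LD range and A115 above it. Slc17a3 (−0.50) and Slc17a1 (−0.33), anion and urate transporters, overlapped between the groups. Slc22a12, the urate transporter URAT1, was at 317, 332, 296 and 437 in the LD kidneys and 482, 565, 409 and 46.1 in the ADV kidneys, and A115 was again lowest. Anpep, the brush border aminopeptidase N, was at 46.3, 44.9, 43.9 and 43.4 in the LD kidneys and 41.3, 37.3, 39.7 and 34.6 in the ADV kidneys, the order being complete but the size small (log2 fold change −0.22 ± 0.13 SE). Enpep, aminopeptidase A, which cleaves angiotensin II, was at 75.8, 76.7, 65.7 and 68.2 in the LD kidneys and 50.8, 58.7, 44.3 and 73.5 in the ADV kidneys and fell by 0.49 without A115 (adjusted p = 0.028 by limma). Amn, amnionless, the partner of cubilin in protein uptake, was at 23.3, 25.3, 35.9 and 35.1 in the LD kidneys and 61.2, 67.7, 61.9 and 1.99 in the ADV kidneys. With a GC content of 63% it rose without A115 (1.11) while A115 was at a small part of the LD level. Fabp3, a fatty acid binding protein, was the gene of the transport lists above the LD range in every ADV kidney, at 94.4, 94.4, 79.9 and 70.7 in the LD kidneys and 202, 117, 118 and 136 in the ADV kidneys (log2 fold change 0.73 ± 0.21 SE), and it rose without A115 (0.74, adjusted p = 0.043 by limma). Among genes of the renin-angiotensin system, Agt, angiotensinogen, was at 19.7, 19.5, 28.8 and 20.7 in the LD kidneys and 55.4, 35.4, 32.2 and 7.903 in the ADV kidneys, and Kl, klotho, at 186, 175, 160.0 and 175 in the LD kidneys and 152, 208, 184 and 125 in the ADV kidneys. Agt rose without A115 (0.86, adjusted p = 0.032 by limma), whereas Kl, also without A115, had a log2 fold change of 0.05.

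Injury genes separated single kidneys rather than the conditions. The 39 tested genes of tubule injury had a median of 0.31 (0.10 without L63 to 0.62 without L86). The median was 0.25 after GC correction and 0.06 with both GC correction and A115 left out. Of the 39 genes, 32 had a log2 fold change above 0 with 8 kidneys. None was above the LD range in all 4 ADV kidneys or below it in all 4, where 1.23% and 1.46% of all genes were, so that a list of this size would hold few or none at that share. Limma called 0 of them with 8 kidneys and 0 without A115, when 12.1% of all genes were called higher and 5.22% lower. Havcr1 (Kim-1), the marker of the injured proximal tubule, was at 5.24, 14.8, 142 and 16.5 in the LD kidneys and 135, 3.88, 4.12 and 204 in the ADV kidneys. L86, an LD kidney, was thus as high as A75, and A91 and A94 had the lowest levels of all. Lcn2 was at 15.03, 25.5, 70.04 and 21.8 in the LD kidneys and 233, 15.1, 25.9 and 232 in the ADV kidneys and Spp1, osteopontin, at 802, 1009.8, 3416 and 924 in the LD kidneys and 8104, 711, 947 and 13435 in the ADV kidneys. Clu, clusterin, was at 163, 187, 578 and 169.8 in the LD kidneys and 951, 169.7, 215 and 721 in the ADV kidneys, and in all 4 of these genes A75, A115 and L86 were the 3 highest kidneys. These genes, and C3, Timp1, Ccnb2, Mki67, Top2a and Vcam1, were picked after their values had been seen. Within the LD group, L86 was above the other 3 in 38 of the 39 injury genes and in 19 of 21 cell division genes. A75 was above every LD kidney, L86 included, in 23 of the 39 genes, A115 in 18, A94 in 12 and A91 in 1, and A91 was below every LD kidney in 17. Vcam1, an adhesion molecule of tubule cells that fail to repair, was at 10.4, 14.6, 57.9 and 12.2 in the LD kidneys and 25.6, 7.25, 29.1 and 55.2 in the ADV kidneys. Krt7, a keratin, was at 40.2, 52.7, 61.4 and 51.2 in the LD kidneys and 134, 62.99, 73.2 and 44.2 in the ADV kidneys, with A75 standing out.

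**Figure D4:**
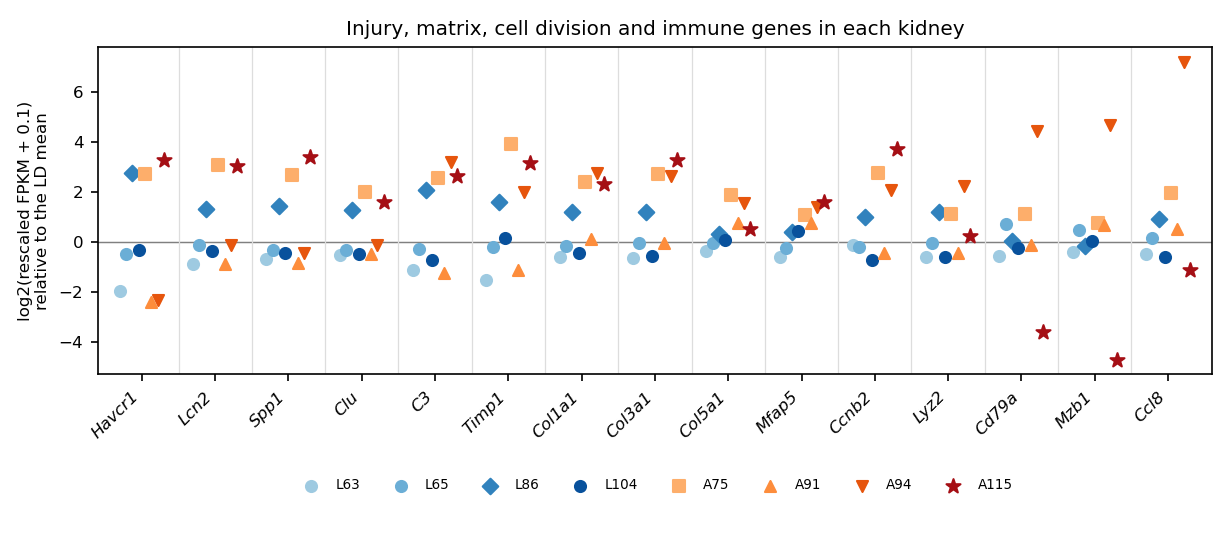
Each point is 1 kidney, plotted as log2(rescaled FPKM + 0.1) relative to the LD mean, for genes of injury, matrix, cell division and immune cells. Injury genes are high in L86, A75 and A115, collagens in A75, A94 and A115, and the B cell, plasma cell and Ccl8 points of A94 stand above all others.

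Genes of cell division had the highest median of all lists with 8 kidneys, 1.32 over 21 genes, all 21 above 0, with 0.99 without A115 to 2.03 without A91 and 0.55 without both A115 and A94. Without A115 the lists of B cells, plasma cells, MHC class II, macrophages, T and NK cells, fibroblasts and interstitial collagens had higher medians. Limma called 0 of the 21 cell division genes with 8 kidneys and 0 without A115, when 12.1% of all genes were called higher and 5.22% lower. The proliferation antigen Mki67 was at 0.529, 1.05, 1.26 and 0.4996 in the LD kidneys and 2.801, 0.333, 2.63 and 8.92 in the ADV kidneys, Top2a, topoisomerase II alpha, at 0.455, 0.975, 1.34 and 0.513 in the LD kidneys and 3.27, 0.4404, 3.98 and 9.94 in the ADV kidneys and Ccnb2, cyclin B2, at 0.4903, 0.457, 1.19 and 0.281 in the LD kidneys and 4.16, 0.372, 2.56 and 8.36 in the ADV kidneys. A75, A94 and A115 were above all LD kidneys in each of the 3 genes and A91 was below or among them. Mcm5, part of the replicative helicase, was at 1.42, 1.49, 1.498 and 0.919 in the LD kidneys and 4.797, 1.51, 4.68 and 2.64 in the ADV kidneys, above the LD range in every ADV kidney, although A91 exceeded L86 by very little, and with overlapping groups after GC correction. It was the only one of the 21 so placed, where 1.23% of all genes were. Levels near 1 rest on few fragments in short genes. Of the 20 senescence and p53 genes (median 0.12, 0.32 without A115 and 0.06 without A94), 2 were above the LD range in all ADV kidneys, where 1.23% of all genes were. Cdkn2b, the cell cycle inhibitor p15, was at 1.35, 1.96, 2.43 and 2.22 in the LD kidneys and 3.95, 2.82, 3.74 and 3.597 in the ADV kidneys (log2 fold change 0.82 ± 0.23 SE), kept that order after GC correction, and rose without A115 (0.80, adjusted p = 0.044 by limma). Lmnb1, lamin B1, the nuclear lamina protein that declines in senescent cells, was at 1.95, 2.48, 2.53 and 1.48 in the LD kidneys and 3.92, 2.64, 4.92 and 7.296 in the ADV kidneys (log2 fold change 1.05 ± 0.33 SE). Bax, a p53 target that promotes apoptosis, was at 20.97, 18.6, 22.5 and 25.5 in the LD kidneys and 45.2, 33.1, 46.8 and 2.199 in the ADV kidneys, high in A75, A91 and A94 and lowest in A115. In the oxidative stress list (median −0.25, but 0.06 without A115) Txnrd1, thioredoxin reductase, was at 62.2, 59.5, 63.7 and 62.2 in the LD kidneys and 49.9, 53.5, 53.8 and 45.3 in the ADV kidneys (log2 fold change −0.29 ± 0.13 SE). Prdx1, peroxiredoxin, was at 702, 798, 747 and 833 in the LD kidneys and 521, 702, 661 and 388 in the ADV kidneys (log2 fold change −0.47 ± 0.21 SE), and both were below the LD range in each ADV kidney, A91 barely so in Prdx1. They were 2 of the 20 tested genes of this list (10%), where 1.46% of all genes were so placed. Gclm, the partner subunit of Gclc, fell by 0.66 without A115 (adjusted p = 0.014 by limma). Hsph1, a heat shock protein, was at 96.03, 102, 100.4 and 135 in the LD kidneys and 64.6, 81.2, 55.3 and 101 in the ADV kidneys and fell by 0.70 without A115 (adjusted p = 0.027 by limma).

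Interstitial collagens were high in 3 of the 4 ADV kidneys. The 14 tested genes of interstitial collagens had a median of 1.07 with 13 of 14 above 0, and 1.03 without A115, 0.78 without A94 and 1.03 after GC correction, but 0.61 with both GC correction and A115 left out. In 3 (21.4%) every ADV kidney was above every LD kidney, where 1.23% of all genes were. Without A115, 2 of the 14 rose, a share near the 12.1% of all genes. Col1a1, a chain of type I collagen, was at 1.81, 2.48, 6.601 and 2.05 in the LD kidneys and 15.4, 3.099, 19.9 and 14.3 in the ADV kidneys (log2 fold change 1.91 ± 0.63 SE), and Col3a1, of type III, was at 3.54, 5.35, 12.7 and 3.72 in the LD kidneys and 37.00, 5.28, 35.1 and 54.9 in the ADV kidneys (log2 fold change 2.16 ± 0.74 SE). In both, A75, A94 and A115 were above every LD kidney, A91 was close to the LD kidneys, and L86 was the highest LD kidney. Col5a1, a chain of type V collagen, was at 0.569, 0.746, 0.968 and 0.801 in the LD kidneys and 3.06, 1.35, 2.45 and 1.15 in the ADV kidneys, above the LD range in all ADV kidneys before and after GC correction (log2 fold change 1.18 ± 0.36 SE), and rose without A115 (1.40, adjusted p = 0.024 by limma). Col14a1, a fibril-associated collagen, was at 7.22, 7.69, 7.05 and 6.88 in the LD kidneys and 11.4, 8.12, 14.8 and 13.5 in the ADV kidneys (log2 fold change 0.69 ± 0.21 SE), with the same order at both settings. Col6a3 had 1.11 to 1.72 in the LD kidneys and 1.78 to 4.45 in the ADV kidneys. The fibroblast markers had a median of 0.71 (0.45 without A94 to 1.01 without A115) with all 14 above 0. Mfap5, a microfibril protein that fibroblasts secrete, was at 0.341, 0.471, 0.768 and 0.793 in the LD kidneys and 1.33, 1.02, 1.68 and 1.91 in the ADV kidneys (log2 fold change 1.22 ± 0.34 SE), above the LD range in each ADV kidney. Dcn, decorin, was at 38.6, 51.02, 54.1 and 38.3 in the LD kidneys and 64.6, 37.7, 85.7 and 100.3 in the ADV kidneys, with A94 and A115 highest and A91 lowest. Matrix glycoproteins and proteoglycans had a median of 0.55 over 36 genes (0.34 without A94 to 0.69 without A91), with list scores high in A75 and A94 (0.88 and 1.06) and within the LD range in A91 and A115. Mgp, matrix Gla protein, a brake on calcification, was at 239, 284, 478 and 293 in the LD kidneys and 1187, 238, 494 and 771 in the ADV kidneys.

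Other parts of the matrix had smaller medians than the collagens. Basement membrane genes had a median of 0.09 over 25 genes (−0.01 without A75 to 0.20 without A115). Lamb2, the laminin of the glomerular basement membrane, was at 7.07, 7.76, 7.82 and 7.82 in the LD kidneys and 14.9, 10.53, 10.7 and 1.95 in the ADV kidneys, and Col4a2, of type IV collagen, at 11.4, 14.2, 21.1 and 15.9 in the LD kidneys and 40.3, 23.04, 25.5 and 12.7 in the ADV kidneys. Both rose without A115 (0.64 and 0.91, adjusted p = 0.024 and 0.039 by limma). The medians were 0.15 for crosslinking and collagen processing, 0.24 for proteases and their inhibitors (0.11 without A94 to 0.31 without A115), 0.13 for TGF-beta and PDGF signalling (0.07 without L63 to 0.27 without L86) and 0.07 for integrins. Without A115 the medians of crosslinking and of integrins were 0.49 and 0.38, but −0.04 and 0.06 with GC correction as well. Their lowest medians with 1 kidney left out were 0.06 (without A75) and −0.03 (without A94). Timp1, an inhibitor of matrix proteases, was at 0.465, 1.32, 4.81 and 1.71 in the LD kidneys and 24.9, 0.647, 6.53 and 14.7 in the ADV kidneys, high in A75 and A115, where the injury genes were also high. Timp3, an inhibitor bound to the matrix, was at 733, 792, 612 and 677 in the LD kidneys and 462, 563, 452 and 831 in the ADV kidneys and fell by 0.52 without A115 (adjusted p = 0.033 by limma). Over the 7 matrix lists 166 genes were tested, of which 4 were above and 0 below the LD range in all ADV kidneys (1.23% and 1.46% of all genes). Without A115, 14 rose and 4 fell, where 12.1% and 5.22% of all genes did, and 17 of these 18 were on the other side of the LD mean in A115.

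Leukocyte genes were highest in A94. With 8 kidneys the medians were 0.83 for macrophages, 1.16 for B cells, 0.66 for plasma cells and 0.71 for T and NK cells. Without A94 they were 0.44, 0.02, −0.07 and 0.18. Every tested member of these 4 lists had a log2 fold change above 0 with 8 kidneys, limma called 0 of them with 8 kidneys and 0 without A115 (12.1% of all genes higher and 5.22% lower), and 0 were above the LD range in all 4 ADV kidneys (1.23% of all genes). Cd79a, part of the B cell receptor, was at 0.723, 1.91, 1.12 and 0.923 in the LD kidneys and 2.49, 0.998, 26.1 and 0 in the ADV kidneys. Jchain, which joins IgA and IgM subunits, was at 41.3, 53.7, 49.01 and 37.6 in the LD kidneys and 64.3, 54.5, 521 and 20.2 in the ADV kidneys, and Mzb1, a chaperone of plasma cells, at 1.89, 3.53, 2.23 and 2.59 in the LD kidneys and 4.25, 4.07, 66.2 and 0 in the ADV kidneys. In these 3 genes A94 exceeded every other kidney several times over, whereas A75, A91 and A115 were near or under the LD range. Cd3e of T cells was at 0.574, 0.817, 1.43 and 0.503 in the LD kidneys and 1.14, 1.32, 6.73 and 0.967 in the ADV kidneys. Ccl8, a chemokine that attracts monocytes and T cells, was at 1.61, 2.602, 4.39 and 1.48 in the LD kidneys and 9.15, 3.37, 354.02 and 1.02 in the ADV kidneys, the widest range of a chemokine here. Lyz2, lysozyme of macrophages, was at 45.6, 67.4, 162 and 46.4 in the LD kidneys and 151, 51.6, 327 and 82.2 in the ADV kidneys, and C1qa, of the complement component that macrophages make, was at 15.3, 20.1, 41.1 and 19.7 in the LD kidneys and 63.9, 22.3, 165 and 7.52 in the ADV kidneys. For these macrophage genes A94 was highest, and A75 and L86 were above the remaining kidneys. L86 was above the other LD kidneys in 18 of 19 macrophage genes. Genes of MHC class II and antigen presentation had a median of 0.73, of complement 0.79, of the interferon response 0.56 and of chemokines 0.67. Without A94 these were 0.06, 0.32, 0.19 and 0.12. C3, the central complement component, was at 7.63, 13.7, 71.1 and 9.92 in the LD kidneys and 99.5, 6.97, 151 and 103 in the ADV kidneys, high in A75, A94, A115 and also L86.

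**Figure D5:**
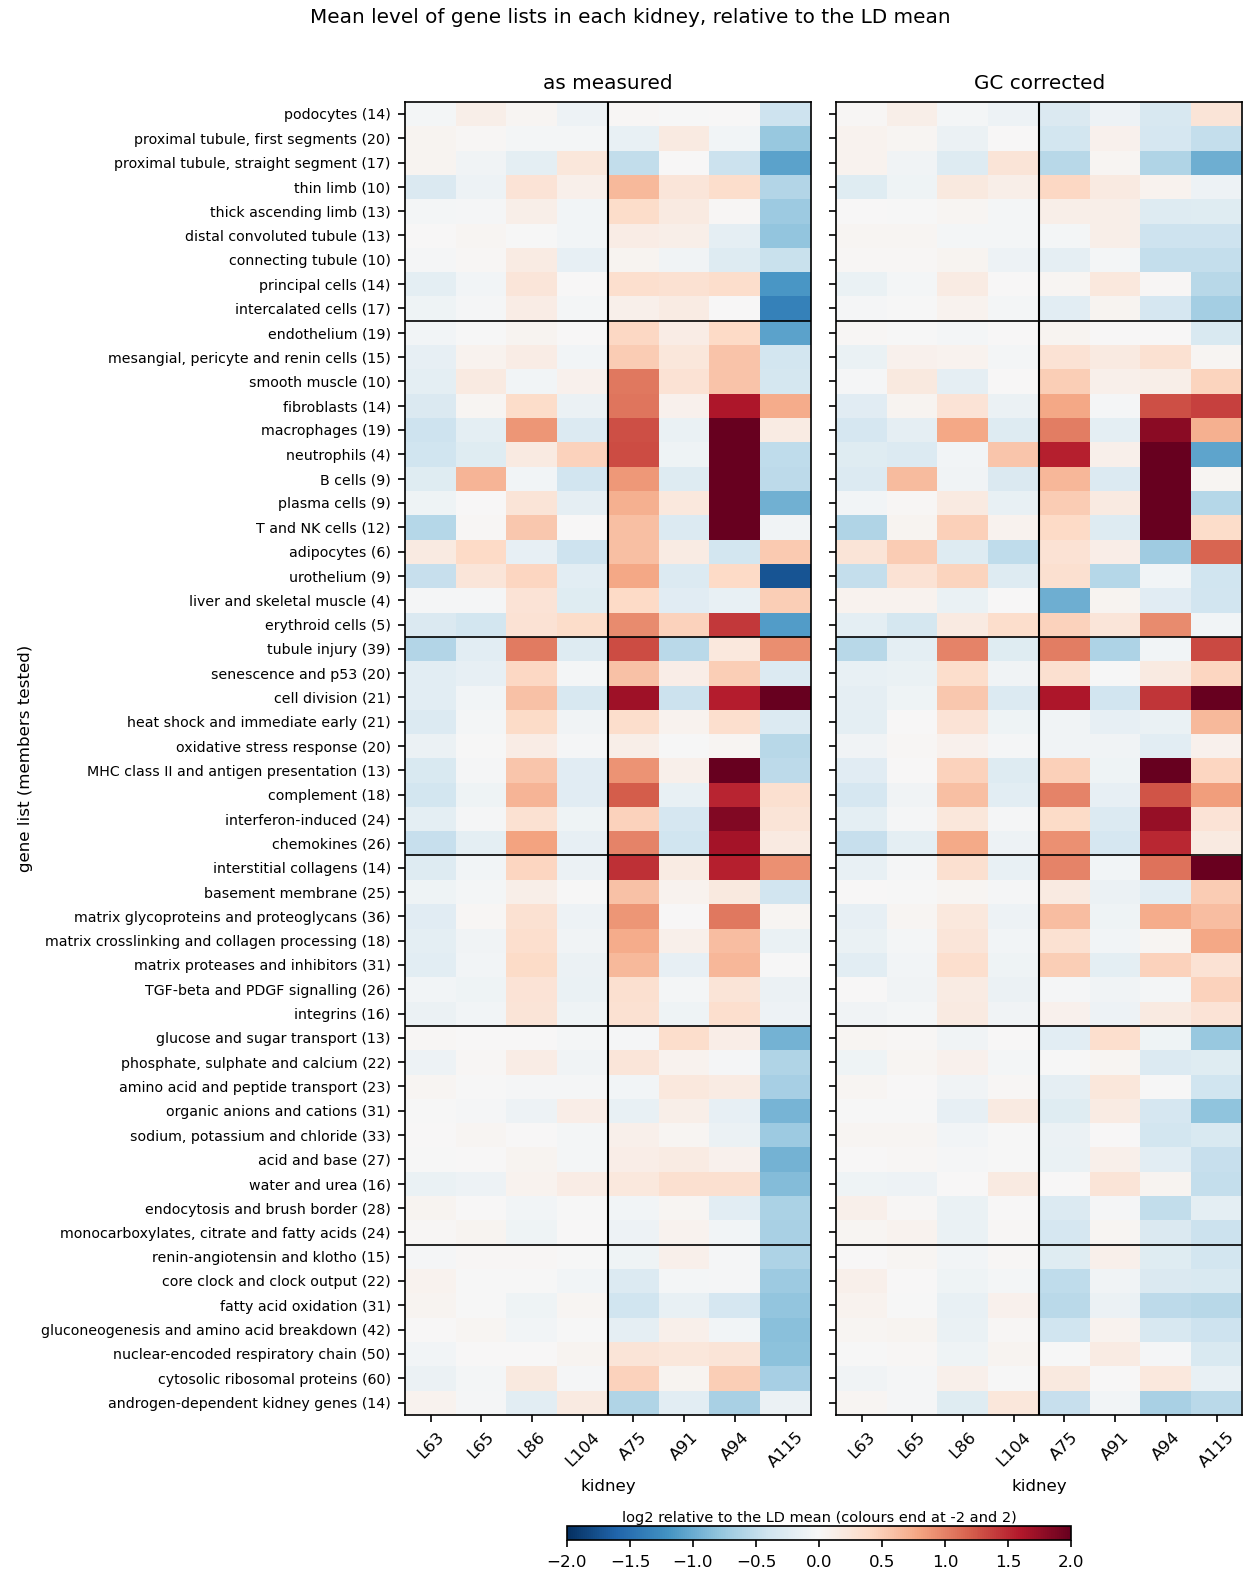
Mean level of each gene list in each of the 8 kidneys as log2 relative to the LD mean, before (left) and after (right) GC correction, with the number of members tested in brackets. Colours end at −2 and 2. The B cell list of A94 is at 4.33 and its plasma cell list at 2.77 before correction, and the principal cell list of A115 at −1.17.

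The liver of the same mouse shared this feature of A94. Its mean list levels relative to the LD livers were 4.29 for B cells, 3.57 for plasma cells, 3.12 for T and NK cells and 1.91 for macrophages, on the log2 scale. The other 3 ADV livers lay between −0.50 and 0.55 on these 4 lists. Collagens of A94 were at 2.62 in its liver and those of A115 at 1.03, while those of A91 were at −0.08. Fatty acid oxidation was at −0.25, 0.05, −0.65 and −0.10 in the 4 ADV livers. The list scores of the ADV kidneys for these genes were −0.39, −0.14, −0.34 and −0.78, each below every LD kidney (−0.09 to 0.06). After GC correction the groups overlapped, with A91 at −0.12 and L86 at −0.15.

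Whether the ADV effect was particular to the kidney was tested gene by gene on the difference between kidney and liver within each mouse. Of the 11396 genes tested in both organs, limma called 0 (0%), with 351 at an unadjusted p under 0.05. Without A115 the count was 247. Pairing by mouse did not decide this, since without the replicate block limma also called 0 genes (334 at an unadjusted p under 0.05). For Pck1 the log2 fold change was −0.73 in the kidney and −0.61 in the liver, for Cpt1a −0.54 and −0.67, and for Per2 −0.74 and −0.56. With all 8 mice, none of the genes described above was shown to respond differently in kidney and liver. Prkca, protein kinase C alpha, had a log2 fold change of −0.04 in the kidney, where it was at 3.81, 3.02, 3.16 and 3.05 in the LD kidneys and 2.63, 2.91, 3.05 and 4.302 in the ADV kidneys, and of 1.23 in the liver (limma adjusted p of the difference 0.493, and 0.0421 after GC correction).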

How the data were processed

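Poly(A) RNA of 8 kidneys and 8 livers was sequenced by the authors as paired ends, mapped to GRCm38/mm10 with STAR (2.5.4b per the processing notes) and quantified with HOMER over known canonical genes. The authors deposited FPKM, and each value times exon length and library total came out in steps of 0.5 fragment for 100% of values. They hold no comparison columns. DESeq2, the test of the study for counts, was not run. The main fit used the rescaled FPKM, with limma-voom on the recovered fragments as an alternative.

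Each library was rescaled to its fragments outside chrM, and genes with a mean above 0.5 were tested with limma 3.58.1 (lmFit, eBayes with trend) in R 4.3.3 on log2(rescaled FPKM + 0.1). Fits were made with 8 kidneys, with 7 (without A115) and on kidney minus liver within a mouse. Single values were tested by two-sided exact permutation over the 70 assignments of 4 of 8 mice. The GC correction subtracted, in each kidney, a loess curve (span 0.3) of the deviation from the mean of each gene over the kidneys on transcript GC content. GC came from the GENCODE transcript of the same symbol nearest in length, within 20%, for 12314 genes (88.2%). Liver and kidney titles share the number of the mouse, which pairs them by animal, and the correlation of their deviations was −0.02 to 0.53 over the 8 mice. Alternatives were other scalings (as deposited, median ratio, quantile), pseudocounts of 0.5 and 1, other filters, no trend, array weights, limma-voom on recovered fragments, no replicate block and leaving out each kidney. Procedures were tested on simulated data.

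The comparison and the 55 gene lists (1041 symbols, 948 tested, 7 absent from the table) were chosen with earlier results of these data known. The naming rule takes in, for each direction, the 12 genes of smallest p in the fits with 8 and with 7 kidneys (clone-like symbols excepted), and in each list up to 4 with the smallest p without A115 and the 2 most abundant. Members whose groups did not overlap and a few others were named after their values had been seen. The text describes only some of the 302 genes of the rule, and a few are not reported here. No sequences are shown.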

Additional observations from a re-analysis of the deposited data

Results flagged for a closer look

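In each group of 4 kidneys, Dixon's ratio was used to find a highest or lowest kidney far from the other 3. Of 116 groups 11 were marked, where chance marks about 1 in 20 of independent groups. These groups repeat the same kidneys over related gene lists, so the count cannot be weighed against that share. A115 was marked for its share of fragments on chrM (33.8% against 9.43% to 13.1% in the other ADV kidneys) and for its correlation of deviation with GC content (−0.675 against 0.371 to 0.567). The mean log2 deviation of gene lists in A115 was −0.41 for podocytes (−0.0067 to 0.028 in the others), −1.17 for principal cells (0.31 to 0.35), −1.35 for intercalated cells (0.0065 to 0.17) and −0.95 for acid and base transport (0.082 to 0.16). It was −0.87 for water and urea transport (0.21 to 0.32) and −0.81 for the nuclear-encoded respiratory chain (0.23 to 0.25).

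In the LD group, L65 had 17198 genes detected against 17572 to 17636 in the others. L86 was marked for TGF-beta and PDGF signalling (0.27 against −0.13 to −0.06) and for integrins (0.26 against −0.12 to −0.06).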

How the results depend on the processing

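With 8 kidneys the count of called genes was 2 with no trend in the variance prior, 2600 with array weights (A115 weighted 0.0363) and 1 without both A115 and A94. It ranged from 0 to 2415 when each kidney was left out in turn, the highest without A115, and was 0 without any other kidney. Of the genes called with array weights, 1985 were also called without A115. Without A115, the count was 1545 with no filter on low values, 0 after GC correction and 0 after GC correction without A94. Leaving out 1 more kidney gave 0 to 3379, with 0 without L65, 1 without A94, 497 without L63, 1110 without A75, 1594 without L104 and 3379 without A91. The cause of these changes was not tested. For kidney minus liver, GC correction gave 2 genes, Prkca and the short entry Mir7011, leaving out 1 mouse gave 0 to 247, and no replicate block changed no call. Of 756 list medians recomputed, 746 moved by less than the spread between kidneys, and 24 of 54 lists changed sign at some setting, 11 of them without A115 and 8 without A94. That spread includes A115 itself, which makes it a wide measure. Principal cells, at −0.11 with 8 kidneys and 0.31 without A115, are among those that moved by less. Of the 302 genes that the naming rule takes in, many of them not described above, 125 changed sign at some setting, 62 of them without A115. A reversal while called was not seen. It could arise only for the genes named from the fit without A115, since 0 genes were called with 8 kidneys. The fits with GC correction were chosen after the data had been seen. Depth limits genes near 0.5 rescaled FPKM, where 1 kb of exon holds fewer than 10 fragments.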

Other observations

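Ribosomal protein genes, many of which have processed pseudogenes that can share reads, had a median log2 fold change of 0.07 over 60 genes with 8 kidneys and 0.32 without A115. Without A115, 10 rose and 0 fell, where 12.1% and 5.22% of all genes did. In 1 of the 60 (1.67%) every ADV kidney was above the LD range, a share near the 1.23% of all genes. This was Rpl11, at 418, 425, 419 and 435 in the LD kidneys and 558, 449, 599.8 and 549.8 in the ADV kidneys. Rplp1 was at 237, 289.9, 348 and 365 in the LD kidneys and 1006, 541, 853 and 54.4 in the ADV kidneys, with A75, A91 and A94 above every LD kidney and A115 below them.

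Red cell genes, a sign of blood left in the organ, had a median of 0.35 with 8 kidneys, 0.88 without A115 and −0.03 without A94. Hbb-bs was at 118, 136, 212 and 285 in the LD kidneys and 490.1, 259, 589 and 155 in the ADV kidneys. Endothelial genes had a median of 0.02 (−0.21 without A94 to 0.24 without A115), and 8 of 19 rose without A115, where 12.1% of all genes did. Plvap, of fenestrated vessels, was at 38.7, 43.7, 50.8 and 56.4 in the LD kidneys and 93.3, 85.4, 116 and 8.03 in the ADV kidneys, and Emcn, endomucin, with a lower GC content, was at 80.7, 78.1, 79.5 and 76.4 in the LD kidneys and 76.3, 54.97, 49.96 and 126 in the ADV kidneys. Smooth muscle genes had a median of 0.33 (0.22 without A75 to 0.63 without A115) and mesangial, pericyte and renin genes 0.36 (0.21 without A75 to 0.39 without A115). Tagln, of contractile cells, was at 17.2, 23.5, 27.2 and 28.8 in the LD kidneys and 77.2, 29.4, 42.5 and 26.8 in the ADV kidneys. The median for adipocytes was 0.15 (0.03 without L104 to 0.38 without L65), for urothelium 0.04 (−0.33 without A75 to 0.45 without A115), for neutrophils 0.72 (0.35 without A94 to 1.08 without A91), and for liver and muscle genes −0.23 (−0.33 without A91 to −0.12 without A115). It was 0.19 (−0.08 without A94 to 0.35 without L86) for heat shock and immediate early genes and −0.08 (−0.14 without A94 to 0.05 without A115) for renin-angiotensin and klotho genes. Fgb, a fibrinogen chain that injured tubules can make, was at 1.47, 1.47, 4.36 and 0.889 in the LD kidneys and 27.2, 0.798, 1.14 and 29.2 in the ADV kidneys, high in A75 and A115.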
